A study of Homo sapiens with 12 samples.

Results

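The aminoacyl-tRNA synthetases were followed through the knockdown of PRRC2B, an RNA-binding protein that associates with translation initiation factors. The 36 members are the genes given by symbol for this family, all of them listed among the 59385 gene names of the count table. The 20 cytosolic enzymes carry symbols ending in 1, in A or B for the subunits of the phenylalanine enzyme, or TARS3, and the 16 mitochondrial enzymes carry symbols ending in 2. GARS1 and KARS1 are counted as cytosolic although each gene also supplies the mitochondrial enzyme.

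Poly(A) RNA was measured in HEK293T cells, an established line from human embryonic kidney, by paired-end sequencing of 12 libraries in 4 groups of 3 biological replicates. Both lines carried a stably integrated, doxycycline-inducible shRNA and were kept 36 h in doxycycline. The shCtrl line expressed a non-silencing hairpin and the shPRRC2B line a hairpin against PRRC2B, and from each line total RNA and the RNA of the pooled polysome fractions (fractions 6 to 10 of a sucrose gradient) were sequenced. The comparison of polysome with total RNA between the lines asks which mRNAs lose or gain polysome RNA relative to other mRNAs. The number of ribosomes per mRNA was not measured. Scaling the libraries to a common level removes any change shared by all mRNAs, so the rises and falls below are relative. The lines were established as single clones, so the hairpin and the clone cannot be told apart, and the replicates measure the spread of cultures of 1 clone per line.

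Libraries held 9855734 to 20837542 counted read pairs. PRRC2B itself stood at 272, 313 and 258 CPM (counts scaled to each library's total after TMM normalization, which sets the libraries to a common level) in shCtrl total RNA and at 97.9, 103 and 100.5 CPM in shPRRC2B total RNA, so the hairpin's target was low in every library labelled shPRRC2B. Its fitted log2 change in total RNA was -1.49 ± 0.17 (SE, n = 3 per group; adjusted p = 4.25e-06, quasi-likelihood F test of edgeR, adjusted over 18166 genes by Benjamini and Hochberg, the test behind every adjusted p given here). Of the markers looked up for HEK293T, VIM, KRT8, KRT18, PAX2 and LIN28B were detected in all 12 libraries. PTPRC, ALB, PECAM1 and COL1A1 were looked up as markers not expected there. PTPRC, ALB and PECAM1 stayed at or below 0.434 CPM, but COL1A1 stood at 2.93 to 33.97 CPM over the 12 libraries. Some of these genes differed between the lines in total RNA: KRT8 stood at 85.4 to 95.9 CPM in shCtrl and 20.4 to 21.04 CPM in shPRRC2B, and COL1A1, a fibroblast collagen, at 14.6 to 19.3 CPM and 30.4 to 33.97 CPM. KRT18, the keratin that pairs with KRT8, went the other way, from 34.6 to 37.3 CPM in shCtrl to 47.6 to 48.2 CPM in shPRRC2B, as did VIM (119 to 128 CPM and 222 to 248 CPM) and LIN28B (65.2 to 68.2 CPM and 134 to 147 CPM), all without overlap. The part of these differences in the results below was not tested. In such bulk RNA, fewer cells carrying an mRNA and less of that mRNA per cell cannot be told apart.

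An aminoacyl-tRNA synthetase joins an amino acid to its tRNA and so supplies the charged tRNAs that the ribosome reads against the codons. Human cells keep separate nuclear-encoded enzymes for the cytosol and for the mitochondrion, and several cytosolic enzymes sit together with scaffold proteins in the multi-synthetase complex. The genes of many cytosolic synthetases are transcribed by ATF4, the transcription factor of the integrated stress response, which cells make when amino acids run short or unfolded proteins accumulate. Mitochondrial synthetases charge the tRNAs used to make the few respiratory-chain subunits encoded in mitochondrial DNA.

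The cytosolic synthetase mRNAs fell in translation efficiency (TE, the polysome-to-total ratio compared between the lines) far more often than they rose. Of the 19 cytosolic genes tested, 12 passed the thresholds downward (adjusted p under 0.05 and a log2 change beyond 0.5) and 1, TARS3, passed upward. Across all 18166 genes tested, of which 13607 were annotated as protein-coding, 16.4% passed downward and 10.7% upward. The members are all protein-coding, and shares among protein-coding genes of like transcript length are given further below. The median TE change of the 19 was -0.74 on the log2 scale, beside -0.03 for all genes, and 18 of the 19 values lay below 0. Of the 15 mitochondrial genes tested, 3 fell, 1 rose and 11 did not pass, with a median of -0.27. The difference between the classes was not tested, since the members were chosen with results of these data known.

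In total RNA the cytosolic genes moved the other way on balance: 6 rose and 2 fell, beside 14.9% and 14.1% of all genes, with a median log2 change of 0.37 against 0.04 for all genes. In polysome RNA 2 rose and 11 fell, beside 18.4% and 21.4% of all genes, with a median of -0.57 against -0.01. The mitochondrial genes stayed near the median of all genes in total RNA, with 2 higher, 1 lower and a median of 0.03. In polysome RNA 1 of them rose and 5 fell, with a median of -0.28. TE holds the same libraries as the other comparisons, so the 3 sets of values are descriptions of one another and not separate evidence.

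**Figure D1:**
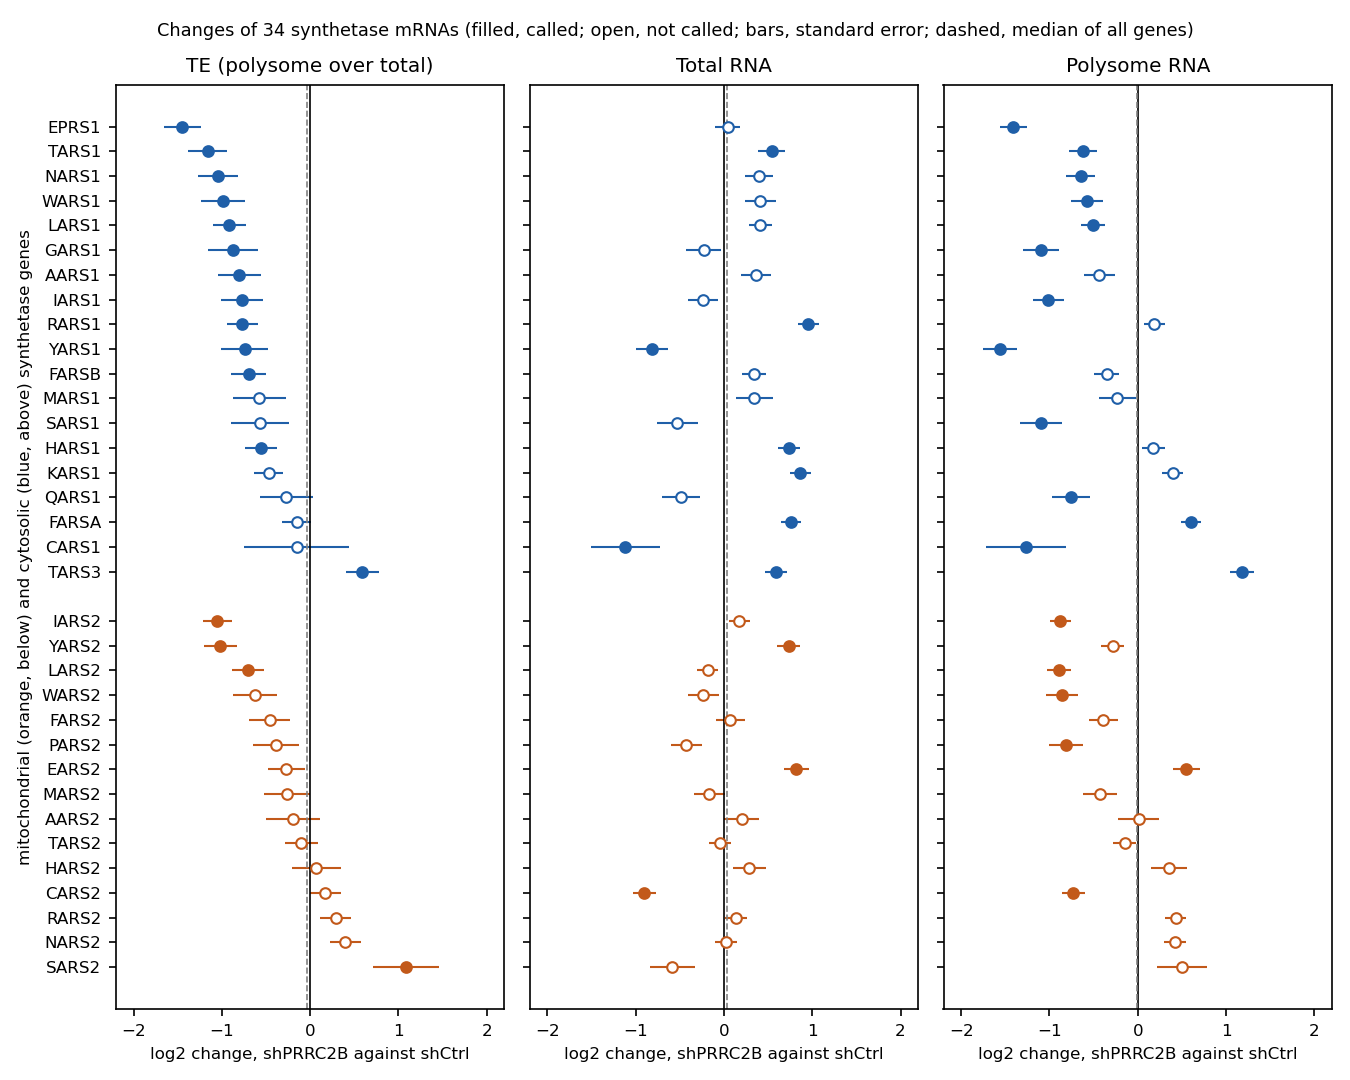
Log2 change between shPRRC2B and shCtrl of each of the 34 tested synthetase mRNAs in TE, total RNA and polysome RNA, with 3 libraries per group; points are fitted values, bars their standard errors, filled points passed both thresholds and the dashed line marks the median of all 18166 genes. In the TE panel 12 cytosolic genes are filled to the left of 0 and TARS3 alone to the right, while 11 of the 15 mitochondrial genes are open.

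Summed over each class, the levels showed the same split between fractions. The cytosolic genes together took 2953, 2962 and 2799 CPM in shCtrl total RNA and 3227, 3296 and 3161 CPM in shPRRC2B total RNA. In polysome RNA they took 1939, 2779 and 3072 CPM in shCtrl and 1637, 1980 and 1805 CPM in shPRRC2B. The sum was higher in every shPRRC2B total library than in any shCtrl total library, whereas in polysome RNA the first shCtrl library fell just below the highest shPRRC2B library. The mitochondrial genes together took 553, 548 and 590 CPM in shCtrl polysome RNA and 450.0, 458 and 463 CPM in shPRRC2B polysome RNA, without overlap. In total RNA they took 700, 735 and 686 CPM against 765, 765 and 741 CPM, again without overlap. Without the TMM factors the mitochondrial sums in total RNA overlapped. They were 1004, 1033 and 1007 CPM in shCtrl and 1045, 1026 and 1025 CPM in shPRRC2B. The cytosolic polysome sums then did not overlap, the lowest shCtrl value being 1410 CPM and the highest shPRRC2B value 1403 CPM. Both readings thus depended on the scaling. The cytosolic sums in total RNA and the mitochondrial sums in polysome RNA did not overlap under either scaling.

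The first shCtrl polysome library stood apart from its replicates for the cytosolic members. It held the lowest value of its group for 15 of the 19 cytosolic genes. For the 15 mitochondrial genes it was lowest for 6 and the second library for 7. Outside the family it was also lowest for PRRC2B, VIM, KRT8, KRT18 and LIN28B, but not for PAX2 and COL1A1. The share of all genes that were lowest in that library was not counted. Without that library 15 cytosolic genes fell in TE, KARS1, MARS1 and SARS1 joining the 12, and 5 mitochondrial genes fell, PARS2 and WARS2 joining the 3, while SARS2 no longer passed. Without the first or the third shCtrl total library, or without the second shPRRC2B total library, 8 cytosolic genes fell in TE.

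EPRS1, which encodes the bifunctional enzyme that charges the glutamate and the proline tRNAs, had the largest TE change of the family (ENSG00000136628.18, chr1:219968600-220046530, minus strand, GRCh38). Its mRNA stood at 311, 319 and 301 CPM in shCtrl total RNA and at 321, 335 and 302 CPM in shPRRC2B total RNA. In polysome RNA it stood at 113, 157 and 165 CPM in shCtrl and at 46.1, 63.6 and 54.1 CPM in shPRRC2B. The total RNA values overlapped between the lines, and every polysome value of shPRRC2B lay below every value of shCtrl. TE fell by a log2 change of -1.45 ± 0.21 (SE; adjusted p = 0.000128), a 2.73-fold loss, and polysome RNA by -1.41 ± 0.15 (adjusted p = 1.71e-06), while the total RNA change was 0.04 ± 0.14 (adjusted p = 0.855).

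TARS1, the cytosolic threonyl enzyme (ENSG00000113407.14, chr5:33440696-33468091, plus strand), moved in opposite directions in the fractions. It stood at 164, 157 and 157 CPM in shCtrl total RNA and at 232, 234 and 228 CPM in shPRRC2B total RNA, but at 116, 161 and 201 CPM in shCtrl polysome RNA and at 96.7, 114 and 99.98 CPM in shPRRC2B polysome RNA. The shPRRC2B libraries were all above the shCtrl libraries in total RNA and all below them in polysome RNA. Total RNA rose by 0.54 ± 0.15 (adjusted p = 0.0110), polysome RNA changed by -0.62 ± 0.15 (adjusted p = 0.00358) and TE by -1.16 ± 0.22 (adjusted p = 0.000932), the only member that passed in both fractions with opposite signs. The total RNA value lay close to the threshold of 0.5 and that call was lost in 11 of 24 alternatives. It came to 0.49 when any polysome library was left out, to just under 0.50 with the total libraries alone or TMM within each fraction, to 0.49 with the length trend removed and to 0.47 with total counts. The polysome and TE calls held in all alternatives run.

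NARS1, the cytosolic asparaginyl enzyme (ENSG00000134440.12, chr18:57600656-57622213, minus strand), stood at 93.2, 92.4 and 93.5 CPM in shCtrl total RNA and at 118, 127 and 123 CPM in shPRRC2B total RNA. Its polysome levels were 47.8, 67.8 and 68.4 CPM in shCtrl and 45.1, 43.7 and 28.7 CPM in shPRRC2B. Neither fraction overlapped between the lines, with total RNA higher and polysome RNA lower in shPRRC2B. TE fell with a log2 change of -1.05 ± 0.23 (adjusted p = 0.00286) and polysome RNA with one of -0.64 ± 0.17 (adjusted p = 0.00426), while total RNA changed by 0.40 ± 0.16 without passing (adjusted p = 0.0580).

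WARS1, the cytosolic tryptophanyl enzyme and an interferon-inducible gene (ENSG00000140105.18, chr14:100333790-100376805, minus strand), stood at 89.8, 88.98 and 89.6 CPM in shCtrl total RNA and at 119.8, 121 and 117 CPM in shPRRC2B total RNA. Its polysome RNA measured 48.8, 86.7 and 97.3 CPM in shCtrl and 56.6, 51.8 and 47.8 CPM in shPRRC2B, where the first shCtrl library lay within the range of the knockdown libraries. The TE change was -0.99 ± 0.25 (adjusted p = 0.00765) and the polysome change -0.57 ± 0.18 (adjusted p = 0.0155); the polysome change came to -0.48 without the third shCtrl polysome library and did not pass, nor did it with the polysome libraries alone (-0.58). For WARS1, 7.31% of the transcript overlaps exons of another annotated gene, where read pairs that touched both were not counted.

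**Figure D2:**
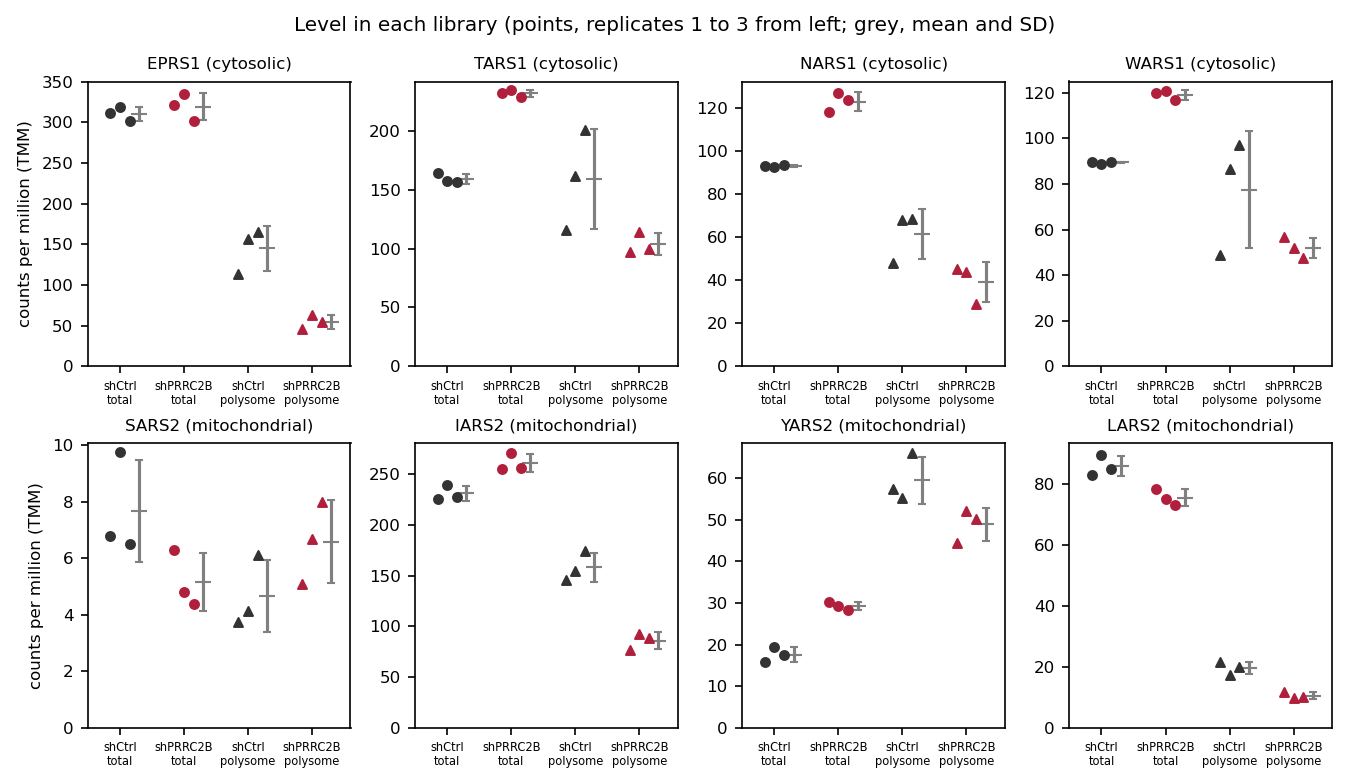
Level in CPM of the 4 cytosolic (upper row) and 4 mitochondrial (lower row) synthetase mRNAs with the largest called TE changes, in each of the 12 libraries; circles are total RNA, triangles polysome RNA, black shCtrl, red shPRRC2B, and the grey marks the mean and SD of 3 libraries. Polysome values of EPRS1 are 113 to 165 CPM in shCtrl and 46.1 to 63.6 CPM in shPRRC2B, whereas its total RNA values overlap.

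The other 8 cytosolic genes that fell in TE spanned -0.92 to -0.55. They were LARS1 (leucyl; -0.92 ± 0.19), GARS1 (glycyl, cytosol and mitochondrion; -0.87 ± 0.28), AARS1 (alanyl; -0.80 ± 0.25), IARS1 (isoleucyl; -0.77 ± 0.24), RARS1 (arginyl; -0.77 ± 0.17), YARS1 (tyrosyl; -0.74 ± 0.26), FARSB (phenylalanyl, beta subunit; -0.69 ± 0.20) and HARS1 (histidyl; -0.55 ± 0.18). Their adjusted p ran from 0.00178 for LARS1 to 0.0444 for YARS1. The 6 genes that did not pass were MARS1 (methionyl; -0.57, adjusted p = 0.161), SARS1 (seryl; -0.57, adjusted p = 0.218), KARS1 (lysyl; -0.47, short of the fold threshold, adjusted p = 0.0418), QARS1 (glutaminyl; -0.27), FARSA (phenylalanyl, alpha subunit; -0.15) and CARS1 (cysteinyl; -0.15). CARS1 was the lowest of the tested cytosolic genes in level and had the widest error, with an SE of 0.59. When the trend of TE with transcript length was removed, the calls of AARS1 (-0.62), IARS1 (-0.42) and FARSB (-0.11) ended, and that of LARS1 (-0.53) ended when the replicate block was added. HARS1 no longer passed with TMM within each fraction (-0.49), with total counts (-0.51) or with genes of at least 10 counts in every library (-0.49), nor did YARS1 in the same fits (-0.69 to -0.67) or with limma (-0.71), nor GARS1 with limma (-0.79). Exons of another gene overlap 10.9% of the GARS1 and 11.3% of the HARS1 transcript.

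In total RNA, RARS1 had the largest increase of the family (ENSG00000113643.9, chr5:168486451-168519301, plus strand). It stood at 75.02, 73.6 and 77.7 CPM in shCtrl and at 144, 152 and 143 CPM in shPRRC2B, with every knockdown library above every control library. In polysome RNA the values were 79.4, 87.7 and 96.3 CPM in shCtrl and 115, 96.95 and 88.00 CPM in shPRRC2B, which overlapped. The total RNA change was 0.96 ± 0.12 (adjusted p = 1.72e-05), a 1.94-fold rise, and the polysome change was 0.19 ± 0.12 (adjusted p = 0.225).

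KARS1 (0.87), FARSA (0.76), HARS1 (0.73) and TARS3 (0.59) also rose in total RNA, with adjusted p from 3.11e-05 to 0.00174. FARSA rose in polysome RNA as well (0.60 ± 0.12, adjusted p = 0.000445), and KARS1 reached 0.40 there, short of the fold threshold. FARSA and FARSB encode the subunits of a single enzyme, and in polysome RNA FARSB came to -0.35 without passing the fold threshold; the difference between the subunits was not tested.

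In polysome RNA the falls beside those of EPRS1, TARS1, NARS1, WARS1, YARS1 and CARS1 were those of GARS1 (-1.10), SARS1 (-1.09), IARS1 (-1.01), QARS1 (-0.76) and LARS1 (-0.51), with adjusted p from 0.000160 for IARS1 to 0.00867 for QARS1. QARS1 and SARS1 thus fell in polysome RNA without passing in TE, their total RNA values being -0.49 and -0.53. The LARS1 call, at the edge of the fold threshold, was lost in 6 of 24 alternatives, with -0.49 with TMM within each fraction, -0.46 with at least 10 counts in every library, -0.50 with limma and -0.23 with the length trend removed.

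Only CARS1 and YARS1 fell in total RNA among the cytosolic genes. YARS1 (ENSG00000134684.13, chr1:32775237-32818031, minus strand) stood at 297, 309.7 and 271 CPM in shCtrl total RNA and at 168, 169 and 162 CPM in shPRRC2B total RNA. The polysome libraries held 161, 294 and 283 CPM in shCtrl and 65.3, 89.4 and 95.99 CPM in shPRRC2B. Both fractions were lower in shPRRC2B with no overlap. The total RNA change was -0.82 ± 0.19 (adjusted p = 0.00273) and the polysome change -1.56 ± 0.19 (adjusted p = 6.60e-06), the largest polysome change of the family. Its TE call (adjusted p = 0.0444) was lost in 13 of 23 alternatives, among them the leaving out of any of 9 of the 12 libraries.

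CARS1 (ENSG00000110619.18, chr11:3000922-3057613, minus strand) stood at 18.1, 6.46 and 4.98 CPM in shCtrl total RNA and at 4.29, 4.36 and 5.11 CPM in shPRRC2B total RNA. Its polysome levels were 9.09, 5.100 and 6.54 CPM in shCtrl and 1.63, 4.39 and 2.66 CPM in shPRRC2B. The total RNA values overlapped, and the first shCtrl total library was far above the others. The fitted change was -1.12 ± 0.39 in total RNA (adjusted p = 0.0351) and -1.27 ± 0.45 in polysome RNA (adjusted p = 0.0302). Without the first shCtrl total library the total RNA change was -0.33 and did not pass. The total RNA call was lost in 7 of 24 alternatives, among them the leaving out of any shPRRC2B total library, limma and the replicate block. An antisense gene overlaps 5.77% of the CARS1 transcript, and reads from the strands cannot be told apart in counts made without a strand option.

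TARS3, a second cytosolic threonyl enzyme (ENSG00000185418.16, chr15:101653596-101724473, minus strand), was the only cytosolic gene that rose in TE. It stood at 26.5, 29.4 and 30.1 CPM in shCtrl total RNA and at 45.2, 43.7 and 40.5 CPM in shPRRC2B total RNA. Polysome levels were 11.3, 12.3 and 10.5 CPM in shCtrl and 26.8, 23.5 and 27.1 CPM in shPRRC2B. Every shPRRC2B library lay above every shCtrl library in both fractions. The changes were 0.59 ± 0.13 in total RNA (adjusted p = 0.00174), 1.18 ± 0.14 in polysome RNA (adjusted p = 4.70e-06) and 0.59 ± 0.19 in TE (adjusted p = 0.0268). The TE call was lost when any of 8 of the 12 libraries was left out, with values from 0.49 to 0.62 in those fits. The transcripts of TARS1 and TARS3 shared 0 stretches of 50 bases, so reads of that length would not match both exactly. Shorter or imperfect matches were not checked.

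**Figure D3:**
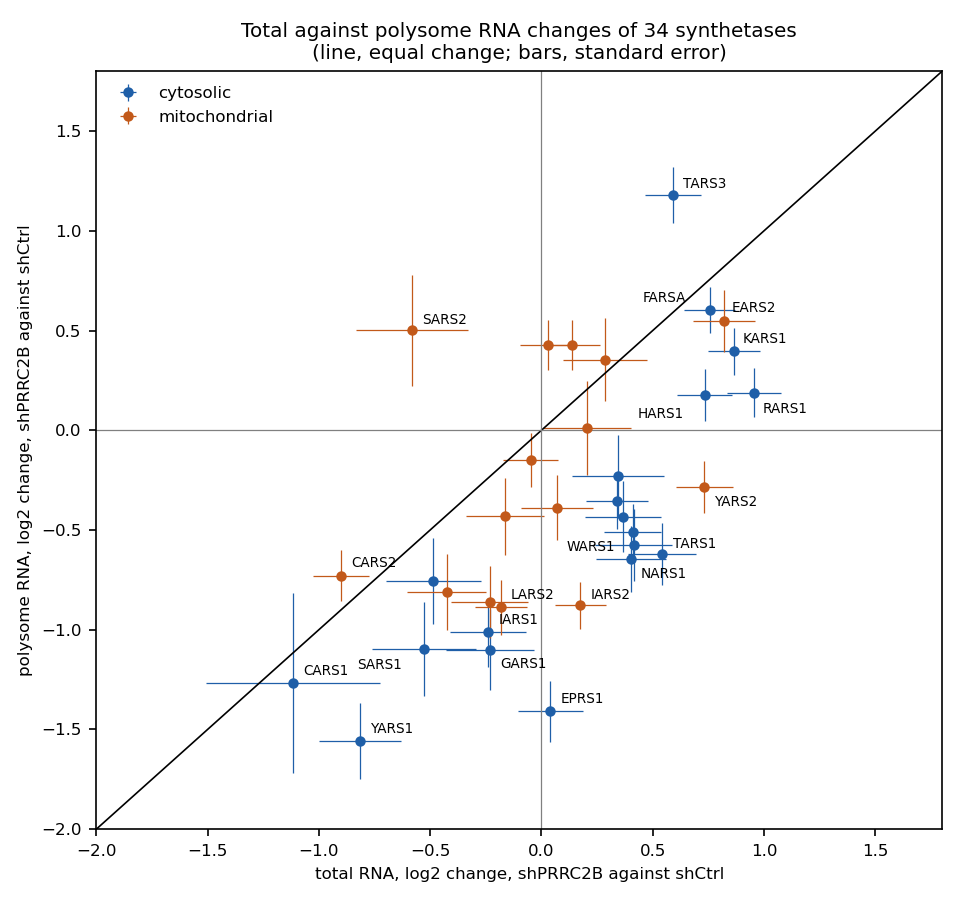
Log2 change in total RNA (x axis) against log2 change in polysome RNA (y axis) between shPRRC2B and shCtrl for the 34 tested genes; bars are standard errors and the diagonal marks equal change in both fractions. Of the 19 cytosolic genes (blue), 18 lie below the diagonal, TARS1 in the quadrant of higher total and lower polysome RNA, and TARS3 above the diagonal at 0.59 and 1.18.

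The multi-synthetase complex holds the enzymes EPRS1, IARS1, KARS1, LARS1, MARS1, QARS1 and RARS1. All 7 values of TE lay below 0 and 4 passed (EPRS1, LARS1, IARS1 and RARS1), with a median of -0.77. Of the 12 tested cytosolic genes outside the complex 8 fell and 1 rose, with a median of -0.72. Among all genes 16.4% fell and 10.7% rose. Summed over the 7 enzymes, total RNA held 1478, 1478 and 1426 CPM in shCtrl and 1631, 1699 and 1608 CPM in shPRRC2B. Among the scaffold genes, AIMP2 fell in TE (-0.71 ± 0.23, adjusted p = 0.0272) and rose in total RNA (0.84, adjusted p = 0.000762), whereas AIMP1 (-0.22) and EEF1E1 (0.56, adjusted p = 0.0602) did not pass in TE. By catalytic class, 9 of 17 class I (52.9%) and 6 of 17 class II genes tested (35.3%) fell in TE, beside 16.4% of all genes. The medians were -0.70 and -0.46. EPRS1 was counted in class I by its glutamyl part alone, and the difference between the catalytic classes was not tested.

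Among the mitochondrial enzymes, IARS2 and YARS2 had the largest falls in TE. IARS2, the isoleucyl enzyme (ENSG00000067704.10, chr1:220094132-220148041, plus strand), stood at 226, 239.8 and 228 CPM in shCtrl total RNA and at 255, 271 and 257 CPM in shPRRC2B total RNA. In polysome RNA it stood at 146, 155 and 174 CPM in shCtrl and at 76.7, 92.8 and 89.04 CPM in shPRRC2B. Knockdown libraries were all higher in total RNA and all lower in polysome RNA. The total RNA change of 0.17 ± 0.12 did not pass (adjusted p = 0.260), while the polysome change was -0.88 ± 0.12 (adjusted p = 1.68e-05) and the TE change -1.05 ± 0.17 (adjusted p = 0.000250).

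YARS2, the tyrosyl enzyme (ENSG00000139131.13, chr12:32727490-32755897, minus strand), stood at 15.8, 19.5 and 17.4 CPM in shCtrl total RNA and at 30.3, 29.2 and 28.2 CPM in shPRRC2B total RNA. Its polysome levels were 57.3, 55.2 and 65.9 CPM in shCtrl and 44.5, 51.96 and 50.1 CPM in shPRRC2B. The lines did not overlap in either fraction, total RNA being higher and polysome RNA lower in shPRRC2B. Total RNA rose by 0.73 ± 0.13 (adjusted p = 0.000371), the polysome change was -0.28 ± 0.13 (adjusted p = 0.0821) and TE changed by -1.02 ± 0.18 (adjusted p = 0.000700). Exons of another annotated gene overlap 18.3% of this transcript.

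LARS2, the leucyl enzyme (ENSG00000011376.12, chr3:45388561-45554726, plus strand), stood at 82.9, 89.3 and 84.6 CPM in shCtrl total RNA and at 78.3, 74.9 and 73.00 CPM in shPRRC2B total RNA. Its polysome RNA measured 21.5, 17.5 and 19.9 CPM in shCtrl and 11.9, 9.84 and 10.1 CPM in shPRRC2B. Both fractions were lower in every knockdown library, the polysome fraction by more. The polysome change was -0.89 ± 0.14 (adjusted p = 5.74e-05) and the TE change -0.70 ± 0.18 (adjusted p = 0.00789), the latter call ending when the length trend was removed (-0.32).

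SARS2, the seryl enzyme (ENSG00000104835.15, chr19:38915266-38930763, minus strand), was the only mitochondrial gene that rose in TE. It stood at 6.79, 9.75 and 6.495 CPM in shCtrl total RNA and at 6.299, 4.79 and 4.37 CPM in shPRRC2B total RNA. The polysome libraries held 3.75, 4.12 and 6.101 CPM in shCtrl and 5.07, 6.69 and 7.99 CPM in shPRRC2B. Total RNA was lower in every knockdown library and polysome RNA overlapped. Neither fraction passed alone, and the TE change was 1.09 ± 0.38 (adjusted p = 0.0394); the call was lost when any of 8 libraries was left out. A readthrough gene covers 77.5% of the SARS2 transcript in the annotation and pairs that touch 2 genes were not counted, so the SARS2 values are uncertain.

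The remaining mitochondrial genes did not pass in TE, and their values ran from -0.63 for WARS2 (tryptophanyl; adjusted p = 0.0705) to 0.40 for NARS2 (asparaginyl; adjusted p = 0.102). Between them lay FARS2 (phenylalanyl; -0.46), PARS2 (prolyl; -0.38), EARS2 (glutamyl; -0.27), MARS2 (methionyl; -0.27), AARS2 (alanyl; -0.19), TARS2 (threonyl; -0.10), HARS2 (histidyl; 0.07), CARS2 (cysteinyl; 0.17) and RARS2 (arginyl; 0.29). WARS2 (-0.86) and PARS2 (-0.81) fell in polysome RNA with adjusted p of 0.000927 and 0.00233.

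EARS2 and EPRS1, which both charge glutamate tRNA, were called in opposite directions in polysome RNA. EARS2 (ENSG00000103356.18, chr16:23520754-23557731, minus strand) stood at 40.9, 42.5 and 40.3 CPM in shCtrl total RNA and at 74.1, 72.2 and 72.00 CPM in shPRRC2B total RNA. In the polysome libraries it was at 13.5, 13.1 and 15.4 CPM in shCtrl and 25.4, 19.6 and 16.5 CPM in shPRRC2B. Both fractions were higher in every knockdown library. Total RNA rose by 0.82 ± 0.14 (adjusted p = 0.000261) and polysome RNA by 0.55 ± 0.16 (adjusted p = 0.00822), beside -1.41 for EPRS1. The polysome call of EARS2 was lost without the first or second shCtrl or the first shPRRC2B polysome library (0.25 to 0.44), when every gene with a count was tested (0.47), with limma (0.50) and with the polysome libraries alone (0.54).

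CARS2 (ENSG00000134905.17, chr13:110641412-110713603, minus strand) fell in both fractions by similar amounts. It stood at 38.9, 35.8 and 34.1 CPM in shCtrl total RNA and at 19.6, 17.7 and 20.9 CPM in shPRRC2B total RNA. Polysome levels were 53.01, 61.2 and 63.4 CPM in shCtrl and 36.4, 33.7 and 37.01 CPM in shPRRC2B. The lines did not overlap in either fraction. Total RNA changed by -0.90 ± 0.13 (adjusted p = 4.44e-05) and polysome RNA by -0.73 ± 0.13 (adjusted p = 0.000187), leaving TE at 0.17 ± 0.18 (adjusted p = 0.508).

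Set side by side by amino acid, the cytosolic enzyme had the lower TE value in 13 of 16 pairings with its mitochondrial counterpart, EPRS1 and FARS2 each entering 2 pairings. The exceptions were IARS1 and IARS2, YARS1 and YARS2, and FARSA and FARS2. In 3 pairings both genes fell (leucine, isoleucine and tyrosine), in 9 the cytosolic gene fell while the mitochondrial gene did not pass, and in 4 neither fell. The widest gaps were those of serine (-0.57 and 1.09), asparagine (-1.05 and 0.40), and EPRS1 with EARS2 (-1.45 and -0.27). HARS1 and HARS2 lie head to head on chromosome 5 and shared 0 stretches of 50 bases; HARS1 stood at -0.55, a call that other scalings ended, and HARS2 at 0.07.

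**Figure D4:**
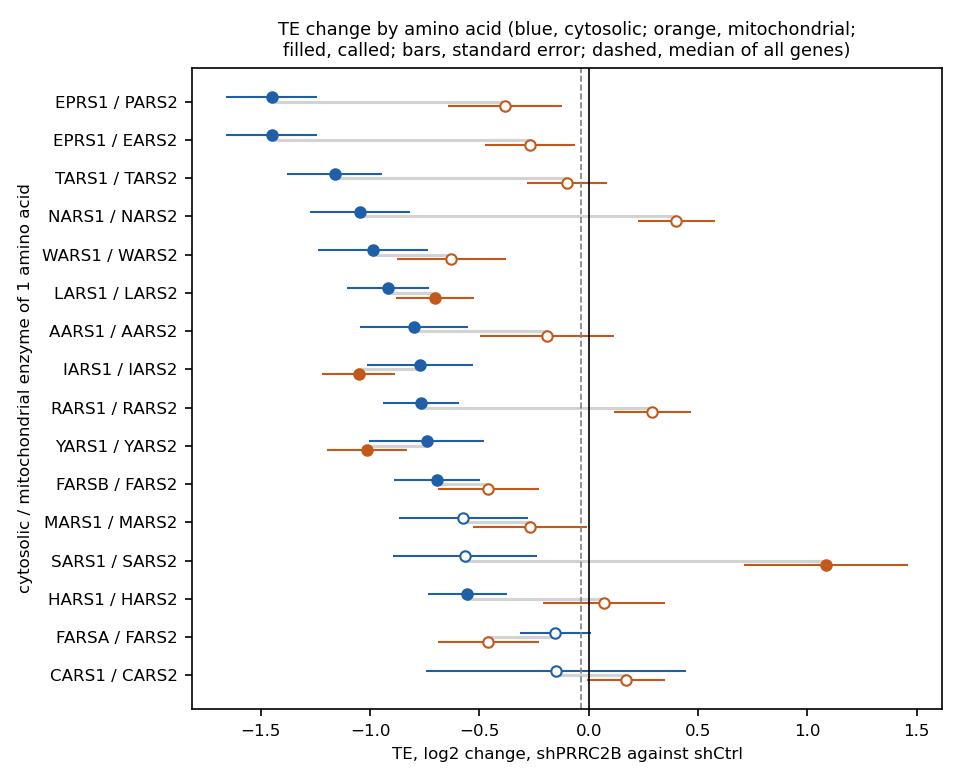
TE change (log2, shPRRC2B against shCtrl) of the cytosolic (blue) and mitochondrial (orange) enzyme of each amino acid, 1 row per pairing; bars are standard errors, filled points passed the thresholds and the dashed line is the median of all genes. The blue point lies left of the orange point in 13 of 16 rows.

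VARS1 and VARS2, the cytosolic and mitochondrial valyl enzymes, did not pass the filter on low counts and were not tested. VARS2 was listed at 0 in all 12 libraries. Exons of another gene overlap 100% of the VARS2 transcript in the annotation used here for coordinates, and read pairs that touched several genes were not counted. VARS1 held 214 counts in the first shCtrl total library and 0 to 5 in each of the other 11. Both genes lie in the stretch of chromosome 6 from HLA-F to HLA-DPB1 (chr6:29722775-33089696), where 23 of 129 protein-coding genes (17.8%) passed the filter, beside 13607 of 19217 (70.8%) among all protein-coding genes. Their listed values therefore say nothing of whether the enzymes were expressed.

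Compared per kilobase of transcript in shCtrl total RNA, YARS1 was the highest of the family at 120 ± 8.06 CPM per kb (SD, n = 3). SARS1 (82.1 ± 5.44), IARS1 (81.3 ± 0.166) and QARS1 (80.5 ± 7.27) followed and did not differ beyond their spread. IARS2 was the highest mitochondrial enzyme at 65.5 ± 2.13 CPM per kb, between MARS1 and EPRS1. The lowest tested members were CARS1 (3.599 ± 2.63), SARS2 (3.99 ± 0.935) and FARS2 (5.12 ± 0.425), whose ranges met.

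The ATF4-responsive set of 13 cytosolic synthetases, of which VARS1 was not tested, held 9 of the 12 cytosolic falls in TE. Of its 12 tested genes 9 fell and 0 rose in TE, with a median of -0.84, and in polysome RNA 10 fell and 0 rose, with a median of -0.83. In total RNA 2 fell (CARS1 and YARS1) and 1 rose (TARS1), with a median of 0.19. Of the 7 other cytosolic genes, 3 fell and 1 rose in TE, with a median of -0.47. In total RNA 5 of these 7 rose and 0 fell, with a median of 0.73. The shares over all genes were 16.4% lower and 10.7% higher in TE, and 21.4% and 18.4% in polysome RNA. In total RNA they were 14.1% lower and 14.9% higher. Of the 19 tested cytosolic genes together, 12 (63.2%) fell in TE. Whether the ATF4-responsive set differs from the other cytosolic genes was not tested.

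ATF4 binds a composite element whose core reads TGATGNAA, and this was looked for on both strands of the RefSeq promoters (GRCh38.p14, 250 bases before to 50 after the gene's start). A match was present in 7 of 16 cytosolic genes with a promoter in the table (43.8%) and in 1 of 14 mitochondrial genes (7.14%), beside 1270 of 35116 promoters in all (3.62%), or 1217 of 27305 genes with a promoter (4.46%). The starts are those of RefSeq, which lists more than 1 for some genes and differs from the GENCODE gene bounds given above. The promoters of AARS2, LARS1, TARS3, VARS1, VARS2 and YARS1 were not analysed here. The matches are shown because 6 of the 8 carry the same 8 letters; each 30-base window is written 5′ to 3′ on the strand that carries the match, with the match in capitals.
TARS1, chr5:33440956-33440985, opposite strand to the gene: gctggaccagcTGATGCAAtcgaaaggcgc
NARS1, chr18:57621804-57621833, strand of the gene: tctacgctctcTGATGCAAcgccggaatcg
AARS1, chr16:70289675-70289704, opposite strand: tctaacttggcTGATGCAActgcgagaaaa
IARS1, chr9:92293692-92293721, opposite strand: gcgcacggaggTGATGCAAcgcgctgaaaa
MARS1, chr12:57488053-57488082, opposite strand: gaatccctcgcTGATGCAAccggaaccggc
CARS1, chr11:3057407-3057436, opposite strand: ttcctagaatcTGATGCAAccgccgccccg
GARS1, chr7:30594834-30594863, opposite strand: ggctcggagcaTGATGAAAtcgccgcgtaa
YARS2, chr12:32756076-32756105, strand of the gene: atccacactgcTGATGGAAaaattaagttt

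Of the 7 cytosolic genes with a match, 5 (71.4%) fell in TE: TARS1, NARS1, GARS1, AARS1 and IARS1. MARS1 and CARS1 did not pass, and the median of the 7 was -0.80. The share that fell was 63.2% among all 19 tested cytosolic genes and 16.4% among all genes. Whether genes with and without a match differ was not tested. In total RNA TARS1 rose, CARS1 fell and the other 5 did not pass, with a median of 0.34. Among all genes 14.9% rose and 14.1% fell there. A match is a stretch of letters and shows neither binding by ATF4 nor regulation in these cells.

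ATF4 itself and 11 of its other targets were looked at beside the synthetases. In total RNA 6 of the 12 fell and 0 rose, beside 14.1% and 14.9% of all genes, with a median of -0.58. In polysome RNA 7 fell and 0 rose, beside 21.4% and 18.4% of all genes, with a median of -0.86. ATF4 stood at 517, 543 and 488 CPM in shCtrl total RNA and at 317, 332 and 344 CPM in shPRRC2B total RNA, without overlap (-0.64 ± 0.21, adjusted p = 0.0256). Its polysome change was 0.12 ± 0.21 (adjusted p = 0.660) and its TE change 0.77 ± 0.30 (adjusted p = 0.0641). ASNS, the asparagine synthetase that makes asparagine and is no tRNA ligase, changed in total RNA by -1.54 ± 0.36 (adjusted p = 0.00295). It changed in polysome RNA by -0.22 ± 0.45 (adjusted p = 0.729) and in TE by 1.33 ± 0.57 (adjusted p = 0.0964). Neither gene passed in polysome RNA or in TE. In TE only SLC7A5, the light chain of the amino acid transporter LAT1, passed (-1.91 ± 0.44, adjusted p = 0.00436). All 11 targets were lowest of their group in the first shCtrl polysome library, the one in which most cytosolic synthetases were low. SLC7A5 stood at 40.6 CPM there beside 145 and 134 CPM in its replicates, and PSAT1, an enzyme of serine synthesis, at 95.1 CPM beside 347 and 329 CPM. The first shPRRC2B polysome library likewise held the lowest value of its group for all 11. ATF4 was highest of its group in the first shCtrl polysome library, at 3309 CPM beside 2587 and 2536 CPM. In the first shPRRC2B polysome library ATF4 was instead lowest of its group, at 1785 CPM beside 3553 and 3857 CPM. The part of these libraries in the polysome and TE values was not tested.

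Crosslinking of full-length PRRC2B to RNA (PAR-CLIP) placed 4 sites in 3 members, KARS1, FARSA and IARS1, all in coding exons. No site of P2, the RNA-binding fragment of PRRC2B, was found in a member when looked up by symbol. The paper counted as PRRC2B-bound the mRNAs with sites shared by the full-length protein and P2. By this lookup none of the 3 members met that rule. The 4 sites are shown as the central 30 bases in the sense of the gene, all in lower case because no motif was searched.
KARS1, exon 3, chr16:75640254-75640283, minus strand: cacaagttccatgtagacatctcactcact
FARSA, exon 13, chr19:12922834-12922863, minus strand: tcaacaatatccgggagctggtgggccaca
FARSA, exon 10, chr19:12924667-12924696, minus strand: catggtctcaccttgggccacctcatgggc
IARS1, exon 6, chr9:92285751-92285780, minus strand: ccttctctacggcatgtaacactccacttt

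Of these 3 genes IARS1 fell in TE (-0.77, adjusted p = 0.0248) and KARS1 and FARSA did not pass. IARS1 stood at 364, 364 and 365 CPM in shCtrl and 303, 324 and 299 CPM in shPRRC2B total RNA, and at 133, 251 and 234 CPM and 105, 96.3 and 105 CPM in polysome RNA. The knockdown libraries were lower in both fractions without overlap. KARS1 and FARSA, by contrast, were higher in every shPRRC2B library of both fractions. EPRS1, TARS1 and NARS1, the cytosolic genes with the largest falls in TE, had no site among those looked up by symbol.

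TE changes depended on transcript length across all genes, and the synthetases were read against that. Protein-coding genes with transcripts under 1500 bases had a median TE change of 0.39, those of 2500 to 3000 bases one of -0.03 and those of 7000 bases or more one of -0.76. The 19 cytosolic transcripts had a median length of 2672 bases (1811 to 6761) and the 15 mitochondrial ones 2512 bases (1679 to 5196). Among members of 1500 to 2000 bases 1 of 7 fell, beside 5.39% of the protein-coding genes of that length, and of 2000 to 2500 bases 4 of 8 fell, beside 8.21%. Of 2500 to 3000 bases 3 of 8 fell, beside 11.1%, and of 3000 to 4000 bases 2 of 4, beside 20.3%. Of 4000 to 5000 bases 4 of 5 fell, beside 28.1%, and of 5000 to 7000 bases 1 of 2, beside 35.97%.

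When the length trend was removed from each library, 10 cytosolic genes fell and 1 rose in TE (median -0.62), and 3 mitochondrial genes fell and 0 rose (median -0.09); over all genes the split turned from 1935 higher and 2981 lower to 1972 higher and 1760 lower. AARS1, FARSB, IARS1, LARS2 and SARS2 no longer passed, and KARS1 (-0.61) and FARS2 (-0.66) passed downward. AARS1 (-0.62, from -0.80) and SARS2 (0.92, from 1.09) kept most of their change, IARS1 came to -0.42 and LARS2 to -0.32, and FARSB, whose transcript of 6761 bases is the longest of the family, to -0.11. EPRS1, TARS1, NARS1, WARS1, RARS1, IARS2 and YARS2 passed in TE under every one of the 23 alternatives run.

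**Figure D5:**
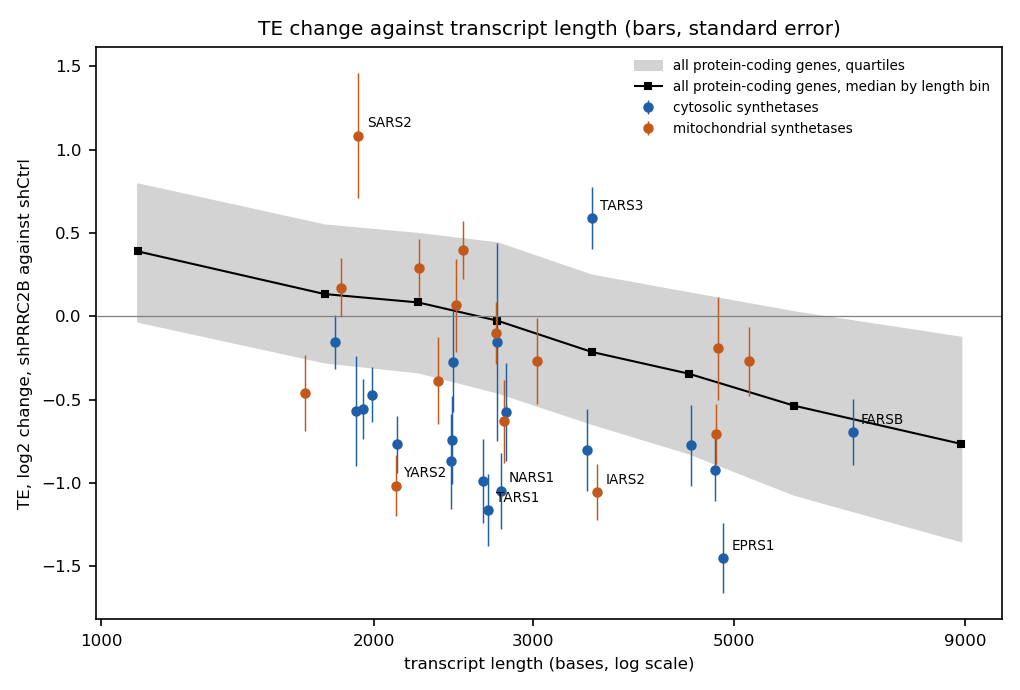
TE change (log2, shPRRC2B against shCtrl) of the 34 tested synthetases against transcript length in bases on a log axis; blue is cytosolic, orange mitochondrial, bars are standard errors, and the black line and grey band are the median and quartiles of all protein-coding genes by length bin. Most blue points lie under the grey band, while FARSB, the longest transcript, lies within it.

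Within each line, polysome RNA was compared with total RNA directly. In shCtrl 10 of the 34 synthetases were higher and 13 lower in polysome than in total RNA, beside 32.5% and 39.8% of all genes, and in shPRRC2B 5 were higher and 19 lower, beside 36.6% and 42.3%. The cytosolic median was -0.21 in shCtrl and -0.74 in shPRRC2B, the mitochondrial median -0.46 and -0.24, and the median of all genes -0.22 in both lines. TARS1 was at 0.00 in shCtrl and -1.16 in shPRRC2B, and LARS1 was the lowest of the family in shPRRC2B at -2.89. These levels rest on the scaling between fractions: with total counts in place of TMM the median of all genes was -1.22 in shCtrl and -1.16 in shPRRC2B, and 24 synthetases in shCtrl and 28 in shPRRC2B were lower in polysome RNA, with 1 and 0 higher.

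Companion genes of aminoacylation mostly did not pass. Of the 15 genes of related steps that are reported here, 3 fell and 1 rose in TE (20.0% and 6.67%, beside 16.4% and 10.7% of all genes), with a median of -0.12. In total RNA 2 rose (13.3%, beside 14.9%) and in polysome RNA 3 rose (20.0%, beside 18.4%), shares near those of all genes. TUFM, the mitochondrial elongation factor that brings charged tRNA to the ribosome, fell in TE (-0.73 ± 0.22, adjusted p = 0.0203), as did AIMP2 and QRSL1, a subunit of the mitochondrial glutaminyl-tRNA amidotransferase (-0.53 ± 0.17, adjusted p = 0.0319). PSTK, the kinase of the selenocysteine pathway, rose in TE (0.74 ± 0.24, adjusted p = 0.0311) and in polysome RNA. GATB rose in total RNA, and GATC and MTFMT in polysome RNA, while EEF1A1, the cytosolic elongation factor that delivers charged tRNA, was at -0.12 in TE (adjusted p = 0.786). SEPSECS, AARSD1, DTD1, DTD2 and PTRH2 passed in none of the comparisons between the lines.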

How the data were processed

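The deposited table holds raw counts of read pairs per gene name for 12 libraries, made by the authors from poly(A)-enriched RNA: reads were demultiplexed with bcl2fastq 2.19.0, trimmed with Trimmomatic 0.36, mapped by HISAT to GRCh38 and assigned to GENCODE 38 genes by featureCounts (Subread 2.0.1), per the labels and the study's methods. No strand option is given, and pairs that map to several places or touch several genes were not counted, which lowers overlapping genes. Every library column was used.

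Here the 18166 genes that passed edgeR's filterByExpr (minimum count 10) were fitted with edgeR 4.0.16 in R 4.3.3: TMM scaling over all 12 libraries (factors 0.681 to 1.47), 4 groups of line and fraction, no block, quasi-likelihood F tests and Benjamini-Hochberg adjustment. Genes counted as called when the adjusted p was below 0.05 and the size of the log2 change exceeded 0.5. CPM values carry the TMM factors. On counts simulated for the TE comparison with 17635 genes tested, 134 of 197 changes of 1.5 (log2) were called, with 5 false calls. The simulated spread followed the fitted trend over all genes and not each gene's own value. The largest TE change of a member was -1.45, so the recovery of changes of the size reported here was not measured. DESeq2 1.42.0 and limma 3.58.1 (log2 of CPM plus a pseudocount of 1) served as alternatives, with other scalings, filters, a replicate block, a length correction and each library left out. Coordinates, transcript lengths and exon overlaps come from GENCODE 44 on GRCh38. Full values are given for the 4 cytosolic and 4 mitochondrial members with the largest called TE changes, the 3 largest called in total and in polysome RNA, and same-amino-acid pairs called in opposite directions. The members and lists were chosen with earlier results of these data known.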

Additional observations from a re-analysis of the deposited data

Results flagged for a closer look

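TARS1 stood out because its total RNA rose and its polysome RNA fell between the lines, both past the thresholds, so that the effect of the knockdown line differed between the fractions by a TE log2 change of -1.16 ± 0.22 (SE, n = 3 per group; adjusted p = 0.000932, edgeR's quasi-likelihood test, which tests this difference itself). All 3 shPRRC2B libraries lay above the shCtrl libraries in total RNA and below them in polysome RNA. The total RNA call, at 0.54, was close to the threshold and lost in 11 of 24 alternatives, with values down to 0.47, so that the pair of opposite calls rests on settings, while the TE call held in all 23. The groups of 3 libraries are too small for a test of single outlying libraries.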

How the results depend on the processing

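The direction of the cytosolic and mitochondrial medians in TE held under all 23 alternatives run, and the count of cytosolic genes lower in TE stayed between 8 and 15. With the replicate block 12 cytosolic and 3 mitochondrial genes fell in TE as without it. Over all genes tested, same-numbered libraries did not deviate together (correlations of -0.0596 to 0.0507). Such correlations cannot show whether the numbers pair the samples for a smaller set of genes, and this was not tested. All 11 ATF4 targets were lowest of their group in the first polysome library of each line. The block left 0 mitochondrial genes higher in TE (SARS2) and 1 cytosolic gene lower in total RNA (CARS1 lost). With the length trend removed together with the block, 9 cytosolic and 2 mitochondrial genes fell in TE, LARS1 being lost beside AARS1, FARSB, IARS1 and LARS2. With the length trend removed, with or without the block, 0 mitochondrial genes were higher in TE and 1 cytosolic gene was higher in polysome RNA, the TE value of AARS2 turned to 0.20 (0.24 with the block) and that of EARS2 to 0.17 (0.16), and 5 synthetases in shCtrl and 3 in shPRRC2B were higher in polysome than in total RNA. With TMM within each fraction or with total counts, 24 synthetases were lower and 1 higher in shCtrl, and 0 were higher in shPRRC2B. Cytosolic genes lower in total RNA numbered 5 when every gene with a count was tested, 4 with total counts or the total libraries alone and 1 with limma; mitochondrial ones numbered 3 with total counts and 2 with the total libraries alone. When every gene with a count was tested, 0 cytosolic genes were higher in TE. Mitochondrial genes higher in polysome RNA numbered 0 in that fit, with limma or with the polysome libraries alone, and 3 with no minimum log2 change. The causes were not tested.

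With 1 library left out at a time, counts ran from 0 to 1 for cytosolic and for mitochondrial genes higher in TE, 3 to 5 for mitochondrial genes lower in TE, 1 to 2 for cytosolic and 0 to 1 for mitochondrial genes higher in polysome RNA, and 1 to 4 for cytosolic and 1 to 2 for mitochondrial genes lower in total RNA. TE values that changed sign ran from -0.55 to 0.13 for AARS2, -0.94 to 0.15 for CARS1, -0.25 to 0.19 for HARS2 and -0.15 to 0.30 for PRRC2B. TE calls were lost for AARS1 without shCtrl total replicate 3 (-0.74), for HARS1 without shCtrl total replicate 1 or 3 or shPRRC2B total replicate 1 or 2 (-0.59 to -0.48), for IARS1 without shCtrl polysome replicate 2, shCtrl total replicate 1 or 2 or shPRRC2B total replicate 2 (-0.78 to -0.65), and for GARS1 without any library but shCtrl polysome replicate 1, shPRRC2B polysome replicate 1 or 2 or shPRRC2B total replicate 3 (-0.88 to -0.69). In polysome RNA, calls were lost for LARS1 without shPRRC2B replicate 3 (-0.49), for FARSA without shCtrl replicate 2 or 3 or shPRRC2B replicate 1 (0.43 to 0.49), and for CARS1 without shCtrl replicate 1 or shPRRC2B replicate 1 or 3 (-1.31 to -1.09). CARS1, SARS2, PARS2 and FARS2 were the tested members at or under 23.3 CPM in all libraries.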

Other observations

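The first shCtrl total library differed from its replicates in 2 members. It held 214 counts of VARS1, beside 0 and 5 counts in the other shCtrl total libraries, and CARS1 stood at 18.1 CPM there, beside 6.46 and 4.98 CPM. In the sum over the cytosolic genes the same library, at 2953 CPM, lay between its replicates. Without the TMM factors that library was the highest of its group, at 4235.5 CPM beside 4161.9 and 4109.3 CPM.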
